A study of Mus musculus with 6 samples.

Results

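The 33 genes described here encode the chaperones, folding enzymes, translocation channel, stress sensors and degradation machinery of the endoplasmic reticulum (ER). They were taken by gene name, and all 33 were found among the 54532 genes of the count table. Endothelial cells form the inner lining of blood vessels, and the samples were cultures of such cells from mouse, analysed 72 h after lentiviral delivery of RBPMS (3 libraries) or of an empty vector as control (3 libraries). RBPMS is an RNA-binding protein that takes part in pre-mRNA splicing, and the series places the comparison in heart failure with age. The labels name no animal, strain, age or vascular bed for the cells, and no promoter or species for the RBPMS construct. Both groups received lentivirus, so neither represents untouched cells. RNA came from bulk cultures, in which fewer cells of a type and less RNA per cell cannot be told apart.

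Secreted and membrane proteins enter the ER through the Sec61 channel, fold with the help of chaperones and disulfide isomerases, and are sent back to the cytosol for destruction when they fail. The Hsp70-type chaperone BiP, encoded by Hspa5, and its J-domain partners bind unfolded chains, while calnexin and calreticulin hold glycoproteins by their sugars. When unfolded proteins build up, the sensors IRE1, ATF6 and PERK raise the transcription of these genes and slow translation, a programme called the unfolded protein response. Endothelial cells secrete large glycoproteins such as von Willebrand factor and matrix proteins, which pass through this machinery.

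Some of these genes share a promoter element. Its sequences are shown because they mark which members carry the classical ER stress signal near their start. The ER stress response element (ERSE) has the letters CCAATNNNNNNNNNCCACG, and ERSE-II joins ATTGG and CCACG with 1 free base between them. Both were searched on both strands of RefSeq promoter windows on GRCm38.p6, which run from 250 bases before to 50 bases after each gene's start and were matched for 26 members. ERSE was present in 8 of the 26 (30.8%), against 0.119% of all 32851 windows of the same length. ERSE-II was found in 2 members (7.69%), against 0.0365% of all windows. Another element, UPRE (TGACGTGG), was in 0 of 26 member windows and in 0.676% of all windows. The motifs were chosen by name as elements of the ER stress response, so their share among the members is a description and not a test. A letter match is a description and not a measured binding site, and the absence of a match says only that these letters are not in the window. The matches are given below along the motif's own strand, with its fixed letters in capitals and the spacer in lower case.
Hspa5 (chr2:34772025-34772043, plus strand): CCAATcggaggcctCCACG
Hsp90b1, first (chr10:86705533-86705551, plus strand): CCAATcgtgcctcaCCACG
Hsp90b1, second (chr10:86705638-86705656, minus strand): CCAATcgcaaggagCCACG
Calr (chr8:84847075-84847093, plus strand): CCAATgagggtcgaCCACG
Canx (chr11:50325800-50325818, minus strand): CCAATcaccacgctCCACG
Creld2 (chr15:88819520-88819538, minus strand): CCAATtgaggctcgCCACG
Dnajc3 (chr14:118937827-118937845, plus strand): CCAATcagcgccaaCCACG
Pdia6 (chr12:17266491-17266509, plus strand): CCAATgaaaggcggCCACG
Syvn1 (chr19:6046532-6046550, plus strand): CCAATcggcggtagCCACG
Dnajb11, ERSE-II (chr16:22857852-22857862, plus strand): ATTGGcCCACG
Herpud1, ERSE-II (chr8:94386377-94386387, plus strand): ATTGGgCCACG

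The whole windows of 3 members follow, chosen because 2 of them are called lower below and the other is the textbook ERSE gene. Capitals mark the fixed letters of each ERSE, read along the gene's strand, so that an element on the opposite strand appears as its reverse complement.
Hspa5 (chr2:34771840-34772139, plus strand): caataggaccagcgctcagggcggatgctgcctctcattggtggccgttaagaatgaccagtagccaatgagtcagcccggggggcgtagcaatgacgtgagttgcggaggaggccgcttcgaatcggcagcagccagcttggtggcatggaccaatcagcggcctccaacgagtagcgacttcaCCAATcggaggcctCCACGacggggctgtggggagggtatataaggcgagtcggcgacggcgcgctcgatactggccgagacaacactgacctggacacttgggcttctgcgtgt
Hsp90b1 (chr10:86705395-86705694, minus strand): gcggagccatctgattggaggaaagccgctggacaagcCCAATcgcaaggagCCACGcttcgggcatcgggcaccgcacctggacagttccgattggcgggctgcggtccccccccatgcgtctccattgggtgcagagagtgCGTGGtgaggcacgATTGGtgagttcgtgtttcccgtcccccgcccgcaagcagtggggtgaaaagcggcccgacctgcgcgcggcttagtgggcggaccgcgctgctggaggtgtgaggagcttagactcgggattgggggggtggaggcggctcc
Pdia6 (chr12:17266339-17266638, plus strand): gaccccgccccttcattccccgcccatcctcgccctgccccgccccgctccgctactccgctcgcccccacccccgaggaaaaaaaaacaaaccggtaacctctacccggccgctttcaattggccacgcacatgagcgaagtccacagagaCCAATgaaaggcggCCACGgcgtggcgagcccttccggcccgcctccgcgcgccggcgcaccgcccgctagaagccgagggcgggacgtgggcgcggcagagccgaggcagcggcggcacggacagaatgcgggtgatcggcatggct
The Hsp90b1 window held 2 exact ERSE matches in opposite orientations. The Hspa5 and Pdia6 windows each held 1, and copies with a differing letter were not searched.

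Total counts ran from 18199702 to 21492957 in RBPMS libraries and from 15779567 to 23076124 in controls. Nothing in the labels says that replicates were separate cultures, so the p-values reflect no more than the spread among these libraries, which may be technical. The Rbpms gene averaged 137 ± 9.11 CPM (counts per 1000000, scaled by the trimmed mean of M values) in RBPMS libraries and 56.4 ± 1.05 CPM in controls (SD, n = 3 each), with all RBPMS libraries above all controls (p = 0.1, two-sided exact permutation test, the smallest that 3 against 3 allows). Control replicate 3 stood apart from the other 5 libraries (Pearson r of log2 CPM across genes 0.959 to 0.965, against 0.993 to 0.997 among the others), so the members' log2 fold changes are given without it and with all 6 libraries. All 10 endothelial markers were detected, with a summed level of 16507 to 17405 CPM in RBPMS libraries and 13315 to 19202 CPM in controls. Without control replicate 3, 2 of these 10 (Erg and Emcn) were called higher and 2 (Vwf and Kdr) lower. Over all genes tested without that library, 3.81% were called higher and 3.43% lower. Summed levels of the fibroblast, smooth muscle, epithelial and cardiomyocyte marker lists stayed at or under 26.0 CPM in every library, with Epcam, Cdh1, Krt18 and Rgs5 at 0 in all of them. Most of the epithelial and mesothelial sum came from Msln. Msln had 17.3, 20.04 and 15.9 CPM with RBPMS, against 24.5, 20.06 and 22.3 CPM in controls. It was not called without control replicate 3 (log2 fold change -0.32 ± 0.11, edgeR adjusted p = 0.077). Pdgfra of the fibroblast list had 4.93 to 5.21 CPM with RBPMS and 4.49 to 6.79 CPM in controls. The leukocyte list summed to 54.9 to 60.0 CPM with RBPMS and 42.6 to 47.1 CPM in controls, nearly all of it from Cd68, while Adgre1 and Cd3e were at 0. Cd68 was itself called higher without control replicate 3 (log2 fold change 0.34 ± 0.072, SE, edgeR adjusted p = 0.0054), a larger change than that of any member called. The part of this Cd68 difference in the results below was not tested.

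As a set, ER folding and quality control transcripts were slightly less abundant in RBPMS cells, and no member was called higher in either fit. The 33 genes together took 0.590%, 0.590% and 0.609% of all counts in RBPMS replicates 1 to 3, against 0.633%, 0.611% and 0.724% in control replicates 1 to 3. All RBPMS libraries lay below all controls in this share, although control 2 and RBPMS 3 were close. The normalised levels, in CPM, summed to 5956 ± 100.1 CPM with RBPMS and 6586 ± 671 CPM in controls (SD, n = 3 each). The mean of control replicates 1 and 2 was 6201 CPM, so much of the gap came with control replicate 3.

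Without control replicate 3, edgeR's quasi-likelihood test called 5 of the 33 members lower (15.2%) and 0 higher at a Benjamini-Hochberg adjusted p under 0.05. Over all 14123 genes tested in that fit 3.43% were called lower and 3.81% higher. The 5 were Manf, Hsp90b1 and Hyou1 among the chaperones, Pdia6 among the disulfide isomerases and Ssr2 of the translocon. At an unadjusted p under 0.05, 12 members were lower and 0 higher, against 10.5% of all genes lower and 10.4% higher. The median log2 fold change of the members was -0.08, against -0.0025 over all genes tested. It was negative for 26 of the 33 members (78.8%), against 50.7% of all genes tested. The calls rest on few libraries. With 1 more left out, the members called numbered 0 without control replicate 1, 2 without RBPMS replicate 1 (Manf and Pdia6), 3 without RBPMS replicate 2, 6 without RBPMS replicate 3 and 5 without control replicate 2.

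With all 6 libraries edgeR called 0 of the 33 members, and 0% of the 13898 genes tested. At an unadjusted p under 0.05, 3 members (Creld2, Manf and Pdia6) were lower and 0 higher, against 4.08% of all genes lower and 3.48% higher. DESeq2 and limma-voom also called 0 members, while limma-voom with a quality weight for each library called 5 lower, namely Hsp90b1, Hyou1, Manf, Pdia6 and Ssr2. They are the same 5 as without control replicate 3. Against the main 6-library fit, the weighted fit and the fit without that library each took the other sign for 9 members. The weighted fit is therefore not read as separate support. All 3 RBPMS libraries lay below all 3 controls for 16 of the 33 members (48.5%), against 12.5% of all genes tested. The gap was slight for some of the 16, such as Calr, with RBPMS libraries up to 474.9 CPM and controls from 475.3 CPM. Control replicate 3 lay above the mean of control replicates 1 and 2 for 23 members. Its median log2 difference from them was 0.40 over the members, against 0.0056 over all genes tested. None of the 33 lay above all controls, against 12.2% of all genes. The median log2 fold change of the members was -0.17, and that of all genes tested was -0.0083.

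**Figure D1:**
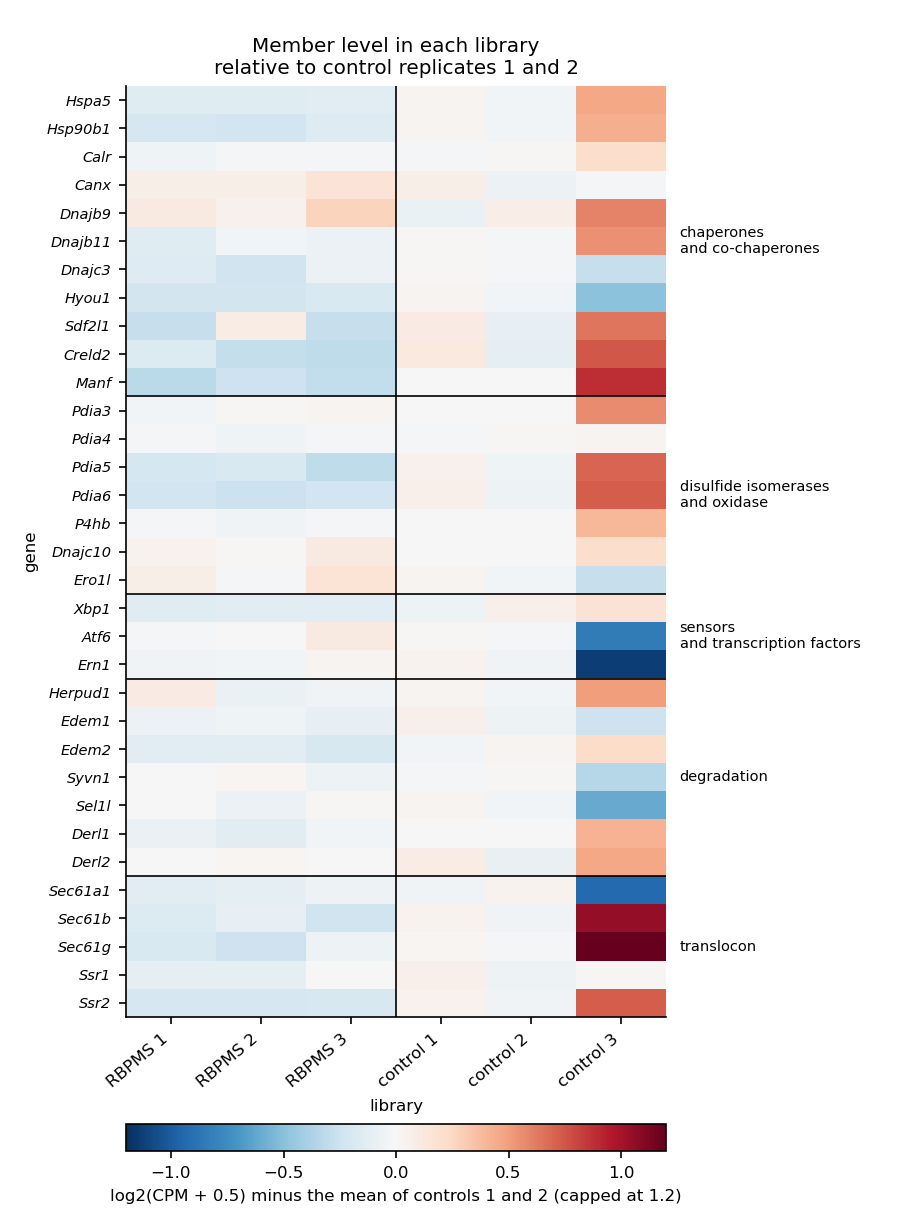
Level of each of the 33 members (rows, grouped by role) in each library (columns, RBPMS replicates left and control replicates right), as log2(CPM + 0.5) minus the mean of control replicates 1 and 2, with colours capped at 1.2. RBPMS columns are mostly pale blue, while control replicate 3 holds both the strongest red (Sec61g, 1.31) and the strongest blue (Ern1, -1.13).

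Among the 11 chaperones and co-chaperones, 3 were called lower without control replicate 3 and 9 had a negative log2 fold change, with a median of -0.15. Over all genes tested in that fit 3.43% were called lower and 50.7% were negative. Hspa5, which encodes BiP, had 536, 536 and 540 CPM in RBPMS replicates 1 to 3, against 605, 580 and 819 CPM in control replicates 1 to 3. The RBPMS libraries were nearly alike and all lay below all controls, yet BiP fell just short of a call without control replicate 3 (log2 fold change -0.14 ± 0.044, SE, edgeR adjusted p = 0.063). It was called in DESeq2 (adjusted p = 0.023), in limma-voom (adjusted p = 0.041) and with a length trend removed in edgeR (adjusted p = 0.038). Library quality weights in limma-voom and no filter on low counts in edgeR also gave a call (adjusted p = 0.027 and 0.043). The other scalings and filters in edgeR did not (adjusted p from 0.051 to 0.065), nor did the replicate number as a block (edgeR adjusted p = 0.082). The call was also absent without RBPMS replicate 1, 2 or 3 as well (edgeR adjusted p = 0.190, 0.156 and 0.071). With control replicate 1 or 2 left out as well the log2 fold change was -0.11 or -0.17. With all 6 libraries the estimate was -0.31 ± 0.16.

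Hsp90b1 encodes the ER-resident Hsp90, a chaperone of integrins and Toll-like receptors. Its level was 401, 393 and 414 CPM in RBPMS replicates 1 to 3, against 471, 451 and 624 CPM in control replicates 1 to 3. The groups did not overlap, and the transcript fell without control replicate 3 (log2 fold change -0.19 ± 0.046, edgeR adjusted p = 0.012). With all 6 libraries it was -0.36 ± 0.15 (edgeR adjusted p = 0.587). The call was lost without RBPMS replicate 1 or 2, or control replicate 1, as well (edgeR adjusted p from 0.057 to 0.132).

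Manf encodes a small BiP-binding protein that is induced by ER stress and partly secreted. It had 57.5, 60.8 and 58.6 CPM in RBPMS replicates 1 to 3, against 72.5, 71.9 and 133.5 CPM in control replicates 1 to 3. All RBPMS libraries were below all controls, and control replicate 3 was far above the other controls. Its fall was the largest of the members called without control replicate 3 (log2 fold change -0.29 ± 0.058, edgeR adjusted p = 0.0033; -0.65 ± 0.25 over all 6 libraries). The annotated Manf locus (chromosome 9, 106838312 to 106891979, minus strand) overlaps Rbm15b on the same strand and Dcaf1 on the other, so its counts are uncertain where reads could be split. Rbm15b and Dcaf1 had log2 fold changes of -0.03 and 0.04 without control replicate 3. The Manf call was lost without control replicate 1 as well (edgeR adjusted p = 0.0516).

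Hyou1, a large Hsp70 relative that also exchanges nucleotide on BiP, behaved differently in control replicate 3. It had 113.5, 113.8 and 116.9 CPM in RBPMS replicates 1 to 3, against 135.3, 129.8 and 94.1 CPM in control replicates 1 to 3. RBPMS libraries lay below the first 2 controls and above the other one, so the groups overlapped. The transcript fell without control replicate 3 (log2 fold change -0.21 ± 0.047, edgeR adjusted p = 0.0092), whereas all 6 libraries gave -0.06 ± 0.15. Without RBPMS replicate 1 or control replicate 1 as well the call was lost (edgeR adjusted p = 0.066 and 0.135).

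The lectin chaperones differed from BiP and its Hsp90 partner in their values. Calr, encoding calreticulin, had 465, 475 and 475 CPM with RBPMS, against 475, 486 and 558 CPM in controls (log2 fold change -0.03 ± 0.044 without control replicate 3 and -0.10 ± 0.12 over 6 libraries). Canx, encoding the membrane-bound calnexin, had 549, 549 and 585 CPM with RBPMS, against 549, 498 and 519 CPM in controls (0.10 ± 0.051 and 0.10 ± 0.11 in the same fits). Neither was called (edgeR adjusted p = 0.80 and 0.26 without control replicate 3), and the difference between these folds and that of BiP was not tested.

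J-domain co-chaperones, which bring substrates to BiP and start its ATPase, were not called in either direction. Dnajb9, a stress-induced partner of the IRE1 sensor, had 43.5, 41.6 and 48.5 CPM with RBPMS, against 38.2, 42.5 and 60.9 CPM in controls. Leaving out control replicate 3 gave a log2 fold change of 0.14 ± 0.080, and all 6 libraries gave -0.08 ± 0.19, so the sign depended on that library. Dnajb11, which binds nascent chains, had log2 fold changes of -0.08 and -0.29 in these fits. For Dnajc3, known as an inhibitor of PERK, the values were -0.15 and -0.07 (edgeR adjusted p = 0.084 without control replicate 3). Dnajc3 was called without RBPMS replicate 3 as well (edgeR adjusted p = 0.019).

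Creld2 and Sdf2l1, small ER proteins known as sensitive reporters of the stress response, had negative log2 fold changes but were not called. Creld2 had 34.9, 31.99 and 31.7 CPM in RBPMS libraries, against 42.5, 36.0 and 66.1 CPM in controls. The groups did not overlap, and the log2 fold change was -0.25 ± 0.083 without control replicate 3 (edgeR adjusted p = 0.069) and -0.55 ± 0.22 over 6 libraries. It was called without control replicate 2 as well (-0.37, edgeR adjusted p = 0.037) and had -0.13 (adjusted p = 0.556) without control replicate 1 as well. Sdf2l1 had 14.3, 18.6 and 14.4 CPM with RBPMS, against 18.7, 16.4 and 27.5 CPM in controls, and the groups overlapped (-0.15 ± 0.12 without control replicate 3 and -0.41 ± 0.22 over 6 libraries).

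**Figure D2:**
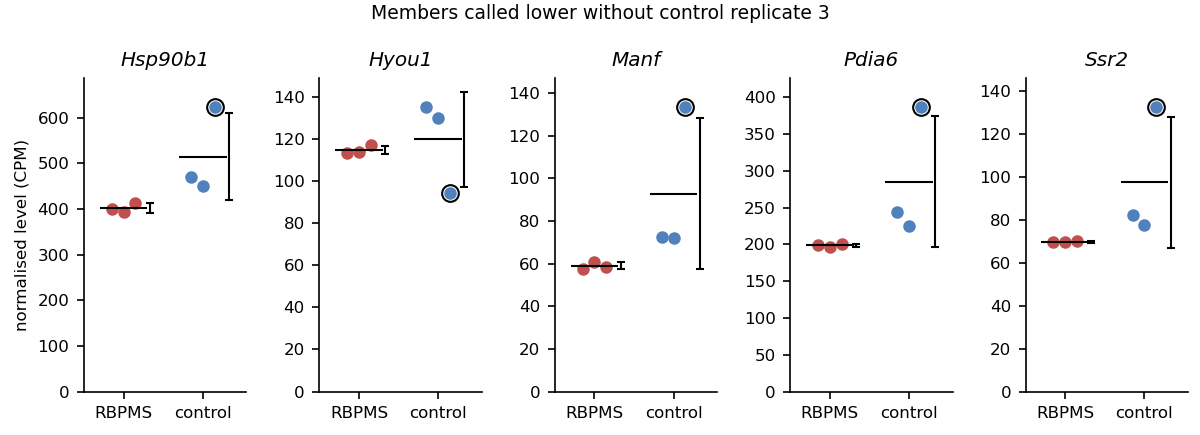
Normalised level in CPM (y axis from 0) of the 5 members called lower without control replicate 3, for RBPMS libraries (left) and controls (right), with group means (horizontal lines) and SD (bars, n = 3 each) and control replicate 3 ringed. RBPMS values cluster tightly under controls 1 and 2, and the ringed control is the highest point for Hsp90b1, Manf, Pdia6 and Ssr2 and the lowest for Hyou1.

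Among the disulfide isomerases and the oxidase that drives them, 7 genes in all, 1 was called lower without control replicate 3 and 0 higher. Calls in that fit were made for 3.43% of all genes tested as lower and 3.81% as higher. The 7 log2 fold changes had their median at -0.03. Pdia6, an isomerase that also binds BiP and the stress sensors, had 199.6, 196.3 and 200.3 CPM with RBPMS, against 245, 225 and 387 CPM in controls. It fell without control replicate 3 (log2 fold change -0.24 ± 0.047, edgeR adjusted p = 0.0031), with groups that did not overlap, and had -0.52 ± 0.21 over all 6 libraries (adjusted p = 0.587). Without control replicate 1 as well the log2 fold change was -0.18 (edgeR adjusted p = 0.103).

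Pdia3, P4hb and Pdia4 were not called in either fit. Pdia3, which works with calnexin and calreticulin on glycoproteins, had 669, 691 and 701 CPM with RBPMS, against 686, 683 and 1013 CPM in controls. Leaving out control replicate 3 gave a log2 fold change of 0.01 ± 0.045, and all 6 libraries gave -0.21 ± 0.18. P4hb, the classical protein disulfide isomerase and a subunit of collagen prolyl hydroxylase, had 566, 559 and 567 CPM with RBPMS, against 575, 574 and 757 CPM in controls (-0.03 ± 0.044 without control replicate 3 and -0.17 ± 0.15 over 6 libraries). Pdia4 had 153.7, 149.9 and 153.4 CPM with RBPMS, against 153.9, 157.0 and 158.7 CPM in controls, with little spread among controls (-0.03 ± 0.046 and -0.04 ± 0.092 in the same fits). For Pdia3 and P4hb control replicate 3 was the highest library, and the other 5 lay close together.

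Pdia5, the least abundant member, had 6.11, 6.23 and 5.70 CPM with RBPMS, against 7.42, 6.91 and 11.9 CPM in controls. The groups did not overlap, but the error was wide (log2 fold change -0.25 ± 0.15 without control replicate 3, edgeR adjusted p = 0.359, and -0.55 ± 0.23 over 6 libraries). Dnajc10, a reductase that opens wrong disulfides before degradation, had log2 fold changes of 0.06 ± 0.046 without control replicate 3 and -0.02 ± 0.11 with it. Ero1l, the oxidase that recharges protein disulfide isomerase, had 77.3, 73.1 and 82.9 CPM with RBPMS, against 75.5, 72.3 and 60.9 CPM in controls, and its log2 fold changes were 0.07 ± 0.061 and 0.16 ± 0.12.

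None of the 3 stress sensors and transcription factors was called in either fit. Xbp1, whose mRNA is cut by IRE1 to yield an active transcription factor, had 101.5, 103.3 and 102.6 CPM with RBPMS, against 107.9, 117.4 and 127.1 CPM in controls. All RBPMS libraries were below all controls, with a log2 fold change of -0.14 ± 0.051 without control replicate 3 (edgeR adjusted p = 0.114) and -0.20 ± 0.10 over 6 libraries. Gene counts do not separate the cut from the uncut Xbp1 mRNA, so the splicing step itself was not measured.

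Atf6 and Ern1, which encode the sensors ATF6 and IRE1, separated by control replicate 3 and not by group. Ern1 had 183, 184 and 192 CPM with RBPMS, against 194, 182 and 85.7 CPM in controls. Atf6 had 136.3, 138.0 and 148.5 CPM with RBPMS, against 138.9, 136.3 and 76.9 CPM in controls. For both, 5 libraries lay close together and control replicate 3 far below. The log2 fold changes over all 6 libraries were 0.28 ± 0.29 for Ern1 and 0.26 ± 0.22 for Atf6, and without control replicate 3 they were -0.01 ± 0.048 and 0.04 ± 0.050.

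Of the 7 degradation genes 0 were called in either fit. Their median log2 fold change was -0.17 over 6 libraries and -0.02 without control replicate 3. Sel1l and Syvn1, the adaptor and the ubiquitin ligase of the central degradation complex, had log2 fold changes of -0.02 ± 0.047 and -0.01 ± 0.054 without control replicate 3. With all 6 libraries both took the other sign, at 0.16 ± 0.18 for Sel1l and 0.09 ± 0.13 for Syvn1. Herpud1, a stress-induced scaffold of that complex with an ERSE-II match, had 41.5, 36.6 and 37.7 CPM with RBPMS, against 39.8, 37.8 and 55.3 CPM in controls. Its log2 fold change was near 0 when control replicate 3 was left out (-0.01 ± 0.078) and -0.20 ± 0.17 with all 6 libraries. Syvn1 overlaps Mrpl49 and Derl2 overlaps Mis12, on opposite strands, so these 2 are uncertain where counting did not use strand.

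Edem2, which trims mannose from misfolded glycoproteins, showed the most negative fold of the degradation genes without control replicate 3, while over 6 libraries Derl1 was marginally lower. It had 71.4, 72.1 and 69.0 CPM with RBPMS, against 76.8, 80.8 and 92.1 CPM in controls, and the groups did not overlap. The log2 fold change of -0.15 ± 0.056 without control replicate 3 was not called (edgeR adjusted p = 0.107), nor was that of -0.23 ± 0.11 over 6 libraries. Edem1, a related protein, had -0.07 ± 0.053 and 0.0061 ± 0.11 in these fits. Of the derlins, membrane proteins that help move substrates out of the ER, Derl1 had 134.6, 130.2 and 139.3 CPM with RBPMS, against 141.8, 143.6 and 190.3 CPM in controls (-0.08 ± 0.048 without control replicate 3 and -0.24 ± 0.14 over 6 libraries). Derl2 had 0.0041 ± 0.070 and -0.17 ± 0.16 in the same fits, so its sign depended on control replicate 3.

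All 5 translocon genes had a negative log2 fold change without control replicate 3, with a median of -0.16, and 1 was called. Over all genes tested 50.7% were negative and 3.43% were called lower. Ssr2, a subunit of the translocon-associated protein complex that assists signal sequences, had 69.5, 69.6 and 70.1 CPM with RBPMS, against 82.3, 77.7 and 132.7 CPM in controls. It fell without control replicate 3 (log2 fold change -0.20 ± 0.055, edgeR adjusted p = 0.033; -0.49 ± 0.21 over all 6 libraries). This was the least stable of the 5 calls: it was lost in DESeq2 (adjusted p = 0.070) and when any 1 of RBPMS replicates 1 and 2 and control replicates 1 and 2 was left out as well (edgeR adjusted p from 0.056 to 0.306). The Ssr2 locus also contains the processed pseudogene Gm10704 on the opposite strand, which had 1570 counts in all against 9778 for Ssr2, so reads may be shared. Its partner Ssr1 had -0.07 ± 0.052 without control replicate 3 and -0.07 ± 0.099 over 6 libraries.

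The 3 subunits of the Sec61 channel went opposite ways in control replicate 3. Sec61a1, the pore-forming subunit, had 185.7, 186.7 and 193.4 CPM with RBPMS, against 196.7, 208.1 and 105.9 CPM in controls. Sec61b had 28.7, 30.1 and 27.2 CPM with RBPMS, against 33.3, 31.2 and 67.4 CPM in controls. For Sec61g the levels were 23.9, 22.9 and 26.1 CPM with RBPMS, against 27.6, 26.8 and 68.1 CPM in controls. Control replicate 3 therefore held the lowest Sec61a1 and the highest Sec61b and Sec61g of all libraries, whereas the other 5 libraries agreed closely. Without that library the log2 fold changes of Sec61a1, Sec61b and Sec61g were -0.10 ± 0.047, -0.17 ± 0.079 and -0.16 ± 0.084, and none was called. With all 6 libraries they were 0.15 ± 0.25, -0.62 ± 0.30 and -0.75 ± 0.36.

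**Figure D3:**
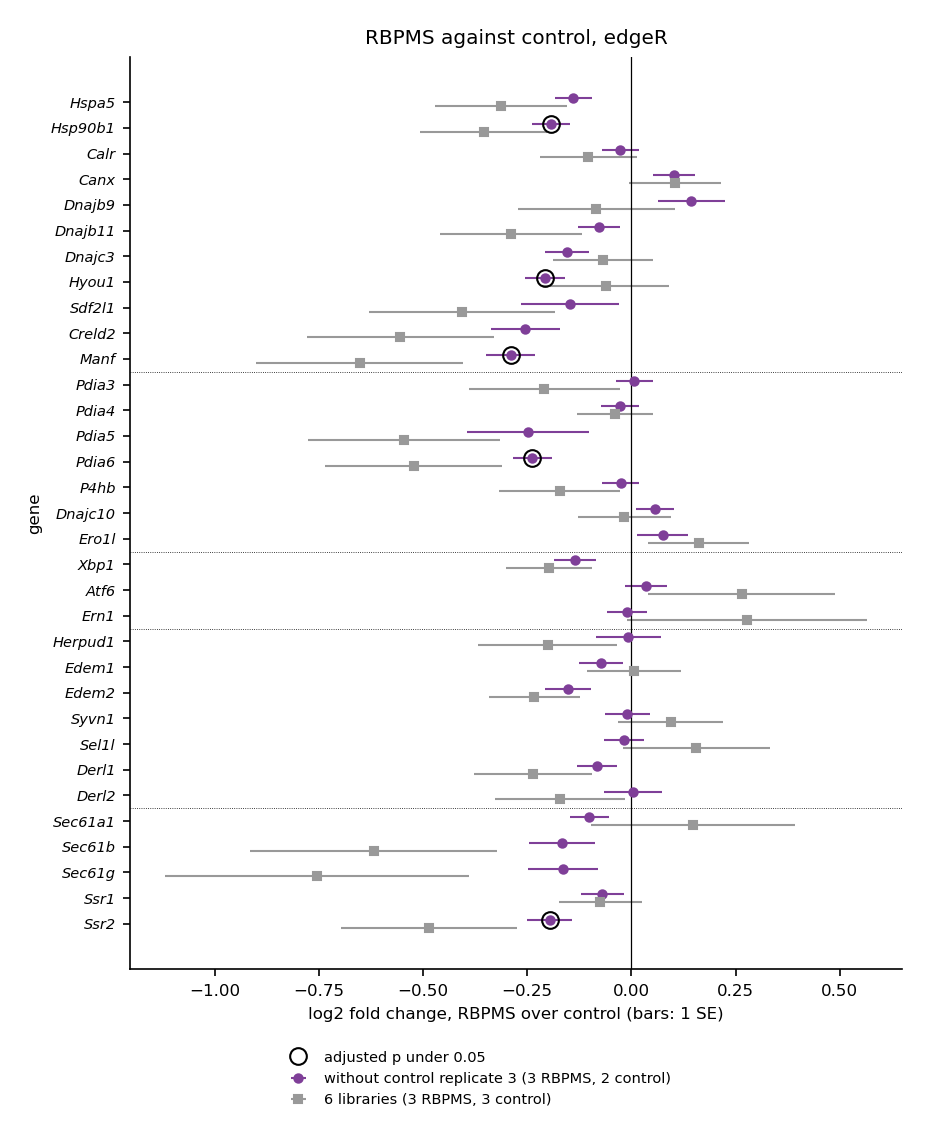
Log2 fold change of each member, RBPMS over control (x axis, bars 1 SE), from edgeR without control replicate 3 (circles) and over 6 libraries (squares), in order of role, with black rings on calls at an adjusted p under 0.05. Without control replicate 3 the values lie between -0.29 (Manf) and 0.14 (Dnajb9), and with it between -0.75 (Sec61g) and 0.28 (Ern1) with wider errors.

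Set side by side without control replicate 3, the median log2 fold change was -0.15 for chaperones and co-chaperones, -0.03 for disulfide isomerases, -0.01 for sensors, -0.02 for degradation genes and -0.16 for translocon genes. The members called lower were 3 of 11, 1 of 7, 0 of 3, 0 of 7 and 1 of 5 in that order, against 3.43% of all genes tested. Averaged over its genes and set against control replicates 1 and 2, the chaperone role differed by -0.14, -0.11 and -0.10 (log2) in RBPMS replicates 1 to 3, and the degradation role by -0.03, -0.06 and -0.06. Over all 6 libraries the medians of the same roles were -0.29, -0.17, 0.26, -0.17 and -0.49, so the sensors alone had a positive one. Differences between roles are descriptions and were not tested.

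The deviation of control replicate 3 followed gene length, among the members as among all genes. Over all genes tested its log2 difference from control replicates 1 and 2 had a median of 0.52 in the shortest 2779 genes by listed length and -0.52 in the longest 2780. Across the 33 members the difference correlated with log2 length at a Pearson r of -0.74 (Spearman rho -0.77), a description over genes that share the same libraries. Ern1 (8173 bases) and Atf6 (9231 bases) lay at -1.13 and -0.83. Sec61b (1271 bases) and Ssr2 (1864 bases) lay at 1.05 and 0.73. Length did not order every member, since Derl2 (8049 bases) lay at 0.46 and Manf (3524 bases) at 0.88. When a trend on length was removed from each library, the members' median log2 fold change was -0.18 over all 6 libraries with 0 calls, and -0.09 without control replicate 3 with 6 calls, all lower.

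**Figure D4:**
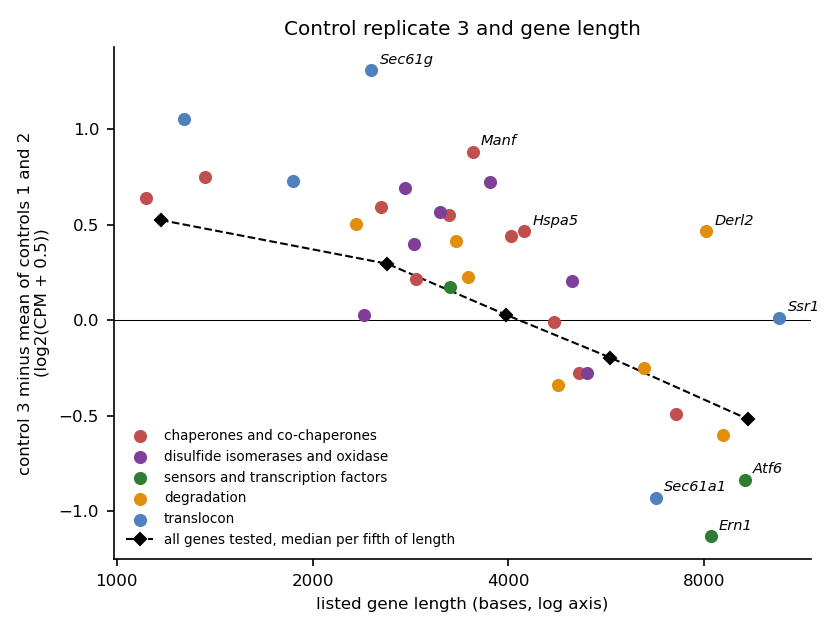
Difference of control replicate 3 from the mean of control replicates 1 and 2 (y axis, log2(CPM + 0.5)) against listed gene length (x axis, bases, log scale) for the 33 members, coloured by role, with the median of all genes tested in 5 bins of length as diamonds. Short members lie above 0 and most long ones below, from 1.31 for Sec61g to -1.13 for Ern1.

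Per length, the members spanned a wide range of levels. Pdia3, P4hb, Calr and Hspa5 were the most abundant, at 219, 197.1, 163.7 and 127.1 CPM per kb of listed length in RBPMS libraries and 218, 200.8, 166.9 and 140.2 CPM per kb in control replicates 1 and 2. Hsp90b1 and Canx followed, and their order differed between groups, with Hsp90b1 at 99.9 and Canx at 119.5 CPM per kb with RBPMS, against 114.2 and 111.5 CPM per kb in control replicates 1 and 2. At the low end Derl2 had 6.16 CPM per kb with RBPMS and 6.15 CPM per kb in control replicates 1 and 2, and Pdia5 had 2.17 and 2.59 CPM per kb. Listed lengths equalled the union of all annotated exons in GENCODE M21 for 32 members, so a gene that uses a short transcript reads low per length.

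The promoter matches can be set beside these values. Of the 10 members with an ERSE or ERSE-II match, 2 (Hsp90b1 and Pdia6) were called lower without control replicate 3 and 9 had a negative log2 fold change, with a median of -0.11. Of the 16 members whose windows held no match, 0 were called and 12 were negative, with a median of -0.05. Over all genes tested 3.43% were called lower and 50.7% were negative. The other 7 members (Atf6, Derl1, Ero1l, Hyou1, Manf, Sec61a1 and Ssr2) were not matched to a window, and 3 of them were called lower. Within the match-bearing group the folds ran from -0.25 for Creld2 to 0.10 for Canx. Of the 26 members with a window, 22 had bases 1 to 30 after the start in an annotated transcript of the gene. Other windows may not surround the start in use, so a missing match there says less.

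Other genes of the same pathways mostly had no call. Of 77 such genes 76 were tested without control replicate 3, where 2 were called higher and 1 lower. These shares lie below the 3.81% higher and 3.43% lower of all genes tested, so the calls do not set these lists apart. Over all 6 libraries 0 were called, with 2 higher and 0 lower at an unadjusted p under 0.05, against 3.48% and 4.08% of all genes. Without control replicate 3, 14 were lower and 5 higher at that threshold, against 10.5% and 10.4% of all genes. Of the 76, 64.5% had a negative log2 fold change in that fit, against 50.7% of all genes. A lean to lower values was thus not particular to the members, but not every list shared it. The negative share was 85.7% for the redox enzymes and 83.3% for the translocon and glycosylation list. It was 71.4% for the further chaperones, 50% for the further degradation genes and 25% for the PERK arm and stress response. The median log2 fold change of the 76 genes was -0.05 without control replicate 3 and -0.12 over all 6 libraries. Among 14 further redox enzymes 1 fell and 0 rose. The one that fell was Qsox1, a secreted-pathway sulfhydryl oxidase, with 112.7, 115.2 and 111.2 CPM under RBPMS, against 135.5, 135.0 and 124.2 CPM in controls (log2 fold change -0.26 ± 0.047 without control replicate 3, edgeR adjusted p = 0.0014, and -0.22 ± 0.096 over 6 libraries, adjusted p = 0.587). Its groups did not overlap, and control replicate 3 was close to the other controls.

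Among 14 further chaperones, glycan-checking enzymes and prolyl isomerases 1 rose and 0 fell. Dnajc1, a membrane J-domain protein, had 93.6, 94.9 and 97.3 CPM with RBPMS, against 86.6, 82.8 and 48.4 CPM in controls (log2 fold change 0.17 ± 0.052 without control replicate 3, edgeR adjusted p = 0.049, and 0.39 ± 0.22 over 6 libraries, adjusted p = 0.587). That call was lost in DESeq2 (adjusted p = 0.101), in limma-voom (adjusted p = 0.063) and with its quality weights (adjusted p = 0.065). Total library sizes, no filter on low counts, removal of the length trend and the replicate block also lost it (edgeR adjusted p from 0.061 to 0.083). It was lost when any 1 RBPMS library was left out as well. With control replicate 1 or 2 left out as well the log2 fold change was 0.20 or 0.14. Of 12 genes of the PERK arm and stress response 9 had a positive log2 fold change, with a median of 0.09. In this list 25% were negative, against 50.7% of all genes tested. At an edgeR unadjusted p under 0.05 without control replicate 3, 4 of the 12 were higher and 1 lower. Over all genes tested these shares were 10.4% and 10.5%. Calls after adjustment were made for 3.81% of all genes as higher and 3.43% as lower. Among the 12, 1 rose and 0 fell. This was Bbc3, a p53 and stress target that promotes cell death, with 43.8, 45.1 and 36.8 CPM in RBPMS libraries, against 31.7, 33.1 and 36.3 CPM in controls (0.37 ± 0.087 without control replicate 3, edgeR adjusted p = 0.011, and 0.31 ± 0.12 over 6 libraries, adjusted p = 0.587). RBPMS replicate 3 was barely above control replicate 3 for Bbc3, and the call was lost without control replicate 1 as well (adjusted p = 0.117).

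No further degradation gene or translocon gene was called. The most abundant per length of these lists were Vcp, the ATPase that extracts substrates from the ER membrane (log2 fold change -0.04 ± 0.052 without control replicate 3), the lectin gene Os9 (-0.12 ± 0.052), the oligosaccharyltransferase subunit gene Rpn2 (-0.04 ± 0.046) and Ssr3 (-0.04 ± 0.046). Of the 18 genes in the translocon and glycosylation list, 15 had a negative log2 fold change (83.3%, against 50.7% of all genes tested), with a median of -0.06. Of 18 degradation genes tested outside the members, 9 were negative, with a median of 0.0018.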

How the data were processed

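RNA-seq was done on 6 libraries of total RNA, with ribosomal RNA removed per the labels' protocols. The values are whole-number counts per gene that the authors deposited, with FastQC, Salmon and mm10 named in the submitters' processing notes. Tool versions, strand use and the step to whole numbers were not given in the sources used here. Gene lengths are other values that the authors deposited in the same table.

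A library's column was assigned by its title. Counts were fitted in R 4.3.3 with edgeR 4.0.16 quasi-likelihood (filterByExpr, TMM, group only), and p-values were Benjamini-Hochberg adjusted over all genes tested. All 33 members passed the filter in both fits. Standard errors (SE) were computed as the fold change over the square root of F. DESeq2 1.42.0, limma 3.58.1, other scalings and filters, a loess trend on length (span 0.3) and omission of each library were alternatives. Members and lists were chosen with earlier results of these data known. Named genes are all members, Rbpms and, in each further list, up to 4 called genes or else the 2 most abundant per length. Markers, overlapping genes and Alg12 were named beside these. Replicates were checked for duplicated libraries, and the chi-square per degree of freedom was 3.19 to 4.32 for pairs other than those with control replicate 3.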

Additional observations from a re-analysis of the deposited data

How the results depend on the processing

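Over all 6 libraries the number of genes called was 0 except with no filter on low counts (5), with DESeq2 (56), with limma-voom and library quality weights (1087) and with the length trend removed (3). Leaving out 1 library each gave 0 to 1022 genes, 0 to 5 members and a member median log2 fold change between -0.24 and -0.078, with calls only where control replicate 3 was left out. Quality weights called 5 members. The causes were not tested.

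Without control replicate 3 the members called numbered 5 to 7, all lower, under the scalings, filters, tools and covariates tried. Leaving out 1 further library gave 415 to 1017 genes, 0 to 6 members and a median between -0.086 and -0.048. Deviations from the group mean correlated at 0.045, -0.032 and 0.0046 between libraries of the same replicate number. The control mean included control replicate 3, which stood apart, so these correlations cannot tell whether the replicate numbers pair the libraries. With the replicate number as a block, 0 members were called over 6 libraries, and 6 members and 917 genes without control replicate 3, where Dnajc3 was gained.

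Some small log2 fold changes took the other sign. Over 6 libraries, quality weights gave 0.10 for Dnajb9, 0.043 for Dnajc10, -0.0088 for Ern1, 0.0092 for Herpud1, -0.060 for Edem1, -0.0012 for Syvn1, -0.012 for Sel1l, 0.013 for Derl2 and -0.11 for Sec61a1. Removing the length trend gave 0.021 for Pdia4 and -0.093 for Edem1. Leaving out 1 library each, values ran between -0.22 and 0.14 for Dnajb9, -0.21 and 0.034 for Hyou1, -0.31 and 0.0071 for Pdia3, -0.054 and 0.056 for Dnajc10, -0.011 and 0.48 for Ern1, -0.072 and 0.078 for Edem1, -0.010 and 0.16 for Syvn1, -0.018 and 0.27 for Sel1l, -0.29 and 0.0041 for Derl2 and -0.10 and 0.32 for Sec61a1.

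Without control replicate 3, total library sizes gave -0.00089 for Derl2, quality weights -0.0032 for Pdia3 and 0.0090 for Herpud1, removal of the length trend -0.0030 for Pdia3 and -0.0079 for Derl2 and the block -0.0087 for Pdia3, -0.0045 for Atf6, 0.0065 for Herpud1 and 0.013 for Syvn1. Leaving out 1 further library each, values ran between -0.0046 and 0.030 for Pdia3, -0.00065 and 0.063 for Atf6, -0.056 and 0.033 for Ern1, -0.059 and 0.030 for Herpud1, -0.029 and 0.017 for Syvn1, -0.052 and 0.015 for Sel1l and -0.086 and 0.10 for Derl2. The least counted member, Pdia5, had 863 counts over all libraries, which limits its precision.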

Other observations

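Outside the members, 14 genes tested without control replicate 3 had an ERSE or ERSE-II match in their promoter window. Of these, 1 was called higher and 0 lower, and 10 had a negative log2 fold change, with a median of -0.06. Over all genes tested 3.81% were called higher, 3.43% were called lower and 50.7% were negative. The one called higher was Alg12, which encodes a mannosyltransferase that builds the sugar chain later attached to ER glycoproteins. It was picked after the values were seen.

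Alg12 and the member Creld2 lie head to head on chromosome 15, with 328 bases between their RefSeq starts on GRCm38.p6, and the ERSE at chr15:88819520-88819538 falls in both promoter windows. Alg12 had 23.7, 23.3 and 23.2 CPM with RBPMS, against 18.5, 19.7 and 15.4 CPM in controls. Creld2 had 34.9, 31.99 and 31.7 CPM with RBPMS, against 42.5, 36.0 and 66.1 CPM in controls. Neither gene's groups overlapped, and the folds had opposite signs (log2 fold change 0.29 ± 0.087 for Alg12, edgeR adjusted p = 0.045, and -0.25 ± 0.083 for Creld2, adjusted p = 0.069, both without control replicate 3). With all 6 libraries neither was called, at 0.39 for Alg12 and -0.55 for Creld2 (edgeR adjusted p = 0.587 for both). The difference between the 2 folds was not tested. The Alg12 call was lost in DESeq2 (adjusted p = 0.125) and in limma-voom (adjusted p = 0.054). It was also lost with no filter on low counts (edgeR adjusted p = 0.0502) and with the replicate block (edgeR adjusted p = 0.075). The same held when any 1 RBPMS library was left out as well (edgeR adjusted p from 0.060 to 0.134). With control replicate 1 or 2 left out as well the log2 fold change was 0.25 or 0.34.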
